A study of Mus musculus with 6 samples.

Results

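The interferon-inducible GTPases described here are 10 mouse genes, 7 immunity-related GTPases (IRGs: Iigp1, Gm4841, BC023105, F830016B08Rik, Igtp, Irgm1 and Irgm2) and 3 guanylate-binding proteins (GBPs: Gbp2, Gbp3 and Gbp10), of 55401 genes counted. They were chosen by symbol from a given list that had itself been selected on the raw and scaled counts of these libraries, because the only library of vehicle-treated TC cells stood out for such genes. Their levels in that library are therefore described without a test. Of the 10, 7 had their highest level there (Iigp1, Gm4841, BC023105, F830016B08Rik, Igtp, Irgm2 and Gbp10), against 19% of the 18539 genes tested. The other 3 went against that description, since Irgm1 lay within the range of the other libraries and Gbp2 and Gbp3 had their lowest level in the TC library, as did 17.9% of the genes tested.

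All libraries came from NIH3T3 cells, an immortalized mouse embryonic fibroblast line. EV cells carried the empty vector and received the vehicle DMSO (n = 2), TC cells carried TAZ-CAMTA1 and received DMSO (n = 1), and TC + ATA cells carried TAZ-CAMTA1 and received aurintricarboxylic acid (ATA) at 10 µM (n = 3). TAZ-CAMTA1 (TC) is the fusion oncoprotein of epithelioid hemangioendothelioma, in which part of the transcriptional coactivator TAZ, with its TEAD-binding region, is joined to CAMTA1. ATA was the study's candidate compound for breaking up the contact between TAZ and TEAD. Cells were seeded for 16 h and then treated for 48 h. TC was stably expressed, and the study's methods say that experiments on these cells were repeated but do not tie the libraries of a group to separate cultures, so p-values measure the spread between these libraries, which may be technical. No EV library was treated with ATA, and with 1 TC library the adjusted p-values of comparisons with TC rest on the spread among the EV and TC + ATA libraries.

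IRGs and GBPs are GTPases that interferons, above all interferon-gamma, switch on in many cell types as part of cell-autonomous defence. Interferon-gamma binds the receptor chains Ifngr1 and Ifngr2, the kinases Jak1 and Jak2 then activate STAT factors, STAT dimers bind GAS elements, and Irf9-containing complexes and Irf1 bind interferon-stimulated response elements (ISREs). Effector IRGs such as Iigp1 assemble on the vacuoles of parasites and bacteria, the regulators Irgm1, Irgm2 and Igtp guard the host's own membranes against them, and GBPs coat vacuoles and bacteria. A fibroblast line without interferon has low levels of most of these transcripts.

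The sequences before the transcript starts are shown for the members for which a promoter entry and an ISRE match were at hand, because their motif layout can be set beside their levels. RefSeq promoter entries on GRCm38.p6 were found for 5 of the 10 members (Igtp, Irgm1, Irgm2, Gbp2 and Gbp3). In the 250 bases before each start, on both strands, the ISRE core GAAANNGAAA was searched, as were the GAS element TTCNNNGAA and the TEAD-binding core GGAATG. Among 32851 promoter entries, 2.98% held the ISRE core, 7.02% the GAS element and 12.6% GGAATG. Igtp and Irgm2 are printed first with Gm12185, an IRG gene that is no member but shared the pattern described below. In each of them a GAS match stood 2 bases before an ISRE match. Capitals mark the GAS match and then the ISRE match, and each sequence runs 5′ to 3′ on the strand of its gene. The stretch of Igtp lies at chr11:58199451-58199555 on the plus strand, that of Irgm2 at chr11:58214842-58214947 on the plus strand and that of Gm12185 at chr11:48927223-48927328 on the minus strand.
Igtp: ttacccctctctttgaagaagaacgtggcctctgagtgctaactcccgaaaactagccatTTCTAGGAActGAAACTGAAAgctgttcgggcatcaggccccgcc
Irgm2: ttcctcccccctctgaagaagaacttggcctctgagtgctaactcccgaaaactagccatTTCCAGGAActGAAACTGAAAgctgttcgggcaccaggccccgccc
Gm12185: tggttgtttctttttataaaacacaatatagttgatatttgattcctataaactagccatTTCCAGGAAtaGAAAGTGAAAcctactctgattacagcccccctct

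Igtp and Irgm2 were identical at 97 of 105 bases compared, whereas Igtp and Gm12185 shared 59 of 105 bases, with an unbroken run of 11 identical bases right before the GAS match in all 3 genes. The pair in this arrangement, a GAS match 2 bases before GAAANNGAAA on either strand, was present in 5 of the 32851 promoter entries (0.0152%). These belonged to Gm12185, Igtp, Irgm2, Tgtp1 and Tgtp2, all IRG genes. Other arrangements of the 2 motifs were not counted. This layout was searched after these windows had been seen. Tgtp1 and Tgtp2, which also hold the layout, were low in all libraries (0 to 22 counts). How far their sequences are shared with other genes was not measured, so their counts are uncertain. Gbp5, Gbp7 and Gm12250 also held both motifs, farther apart. In them the TC library was at 0.358-, 1.14- and 0.511-fold the highest other library. The printed genes are grouped by the TC library that chose the members. A relation between the layout and the levels was not tested.

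Irgm1, Gbp2 and Gbp3, the members that were not highest in the TC library, are printed next. Each held an ISRE core within 60 bases of its start and none held a GAS match in the 250 bases, which says nothing about sequence outside that window. Gbp3 had another entry, for a start further downstream, which held 0 ISRE and 0 GAS matches. Capitals mark the ISRE matches, which overlap each other in Irgm1 and Gbp3. Those of Gbp2 and Irgm1 lie in or across an exon of the gene annotation, so only a site of 30 bases is shown. Gbp3 is at chr3:142559939-142560025 on the plus strand, Gbp2 at chr3:142620594-142620623 on the plus strand and Irgm1 at chr11:48871428-48871457 on the minus strand.
Gbp3: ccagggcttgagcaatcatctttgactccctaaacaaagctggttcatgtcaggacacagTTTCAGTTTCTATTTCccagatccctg
Gbp2: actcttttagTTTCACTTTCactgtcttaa
Irgm1: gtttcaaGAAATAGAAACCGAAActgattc

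Of the members with an entry, Gbp2 alone held GGAATG, 120 to 115 bases before its start. A motif match is a description of letters and not of a bound site.

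**Figure D1:**
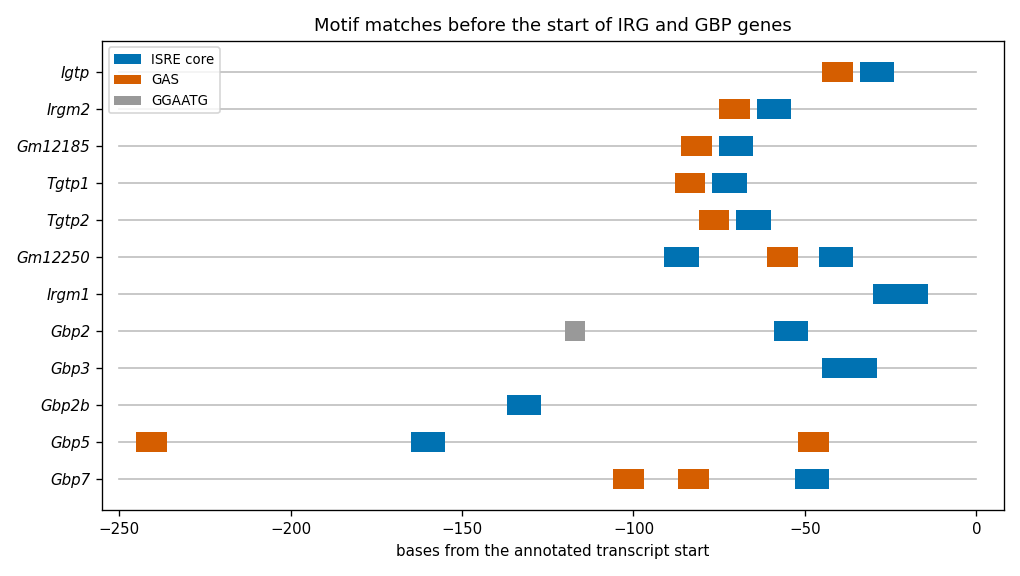
Motif matches in the 250 bases before the annotated transcript start, shown for the IRG and GBP genes with an ISRE match; the x axis is the distance from the start in bases, blue is the ISRE core, orange GAS and grey GGAATG. In Igtp, Irgm2, Gm12185, Tgtp1 and Tgtp2 the orange and blue bars stand 2 bases apart, while Irgm1, Gbp2 and Gbp3 have blue bars and no orange bar.

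Library totals ranged from 58471484 to 74413193 counts, and 3 counts corresponded to a level of 0.0403 to 0.0513 CPM (counts scaled to the library's total). Low counts were mostly even (63.6 to 65.6% of the counts from 1 to 4), as when both mates of a read pair are counted. The fibroblast genes Col1a1 and Col1a2 were high everywhere (212854 to 302346 and 390984 to 512430 counts), but of 10 fibroblast markers 2 rose and 3 fell in TC against EV, among them Thy1, which fell by 1.47, and Pdgfra, which fell by 1.20 on the log2 scale (edgeR adjusted p = 1.026e-05 and 1.307e-05). TC + ATA replicate 1 stood apart in some low-level leukocyte transcripts. Ptprc, which encodes the leukocyte antigen CD45, had 16 counts there, against 378 and 293 in the other TC + ATA libraries, 237 and 219 in EV and 155 in TC, so results on TC + ATA are also given without that library where this matters.

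The chromosome 18 members gave the widest differences between libraries. Iigp1, Gm4841, BC023105 and F830016B08Rik lie within 174.7 kb of each other. Iigp1, an effector IRG, is at chromosome 18 from 60376027 to 60392634 on GRCm38 (plus strand, 4 merged exons). It had 19 and 21 counts in EV, 483 in TC, and 10, 21 and 10 in TC + ATA. The normalized levels were 0.265 ± 0.0151 CPM in EV (SD, n = 2), 6.96 CPM in TC (95% Clopper-Pearson interval 6.12 to 7.91, counting error only) and 0.205 ± 0.0804 CPM in TC + ATA (SD, n = 3). The TC value was 23.5-fold that of the next highest library, and the EV and TC + ATA libraries overlapped.

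Gm4841, an IRG gene on the minus strand from 60268305 to 60273272, had 7 and 19 counts in EV, 650 in TC and 8, 11 and 3 in TC + ATA. Its 9.36 CPM in TC (interval 8.37 to 10.4) was 37.6-fold that of the next highest library, the widest gap among the members. The lowest TC + ATA library was at 3 counts, and both EV and TC + ATA lay near that limit, at 0.171 ± 0.11 (SD, n = 2) and 0.113 ± 0.0610 CPM (SD, n = 3). BC023105, annotated as a processed pseudogene of a single exon (60441765 to 60442980), had 34 and 43 counts in EV, 347 in TC and 26, 26 and 28 in TC + ATA, which put TC at 8.87-fold the next library. F830016B08Rik (60293380 to 60303016) had 9 and 4 counts in EV, 130 in TC and 4, 6 and 2 in TC + ATA, a TC level 15.6-fold that of the next library. For all 4 genes the TC library stood alone and the 5 others formed a low group.

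On chromosome 11, the regulators Igtp and Irgm2 were also highest in the TC library, with smaller gaps. Igtp, also called Irgm3, guards host membranes from effector IRGs (58199556 to 58207591, plus strand). It had 80 and 62 counts in EV, 285 in TC, and 25, 44 and 55 in TC + ATA. Its level was 0.941 ± 0.181 CPM in EV (SD, n = 2), 4.11 CPM in TC (interval 3.45 to 4.82) and 0.617 ± 0.176 CPM in TC + ATA (SD, n = 3). The TC library was 3.84-fold above the next, and every TC + ATA library was below both EV libraries. Irgm2 (58199618 to 58222782, plus strand) had 92 and 86 counts in EV, 242 in TC, and 21, 53 and 35 in TC + ATA, with 3.49 CPM in TC (interval 2.89 to 4.17). For Irgm2 the TC library was 2.835-fold above the next, and again the EV and TC + ATA libraries did not overlap.

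Irgm1, the regulator that lies apart from them on the same chromosome (48861968 to 48871683, minus strand), did not share the pattern. It was the most abundant member in CPM, with 886 and 629 counts in EV, 721 in TC, and 496, 657 and 717 in TC + ATA. The levels were 10.05 ± 2.54 CPM in EV (SD, n = 2), 10.4 CPM in TC (interval 9.33 to 11.5) and 9.435 ± 0.804 CPM in TC + ATA (SD, n = 3). The EV libraries, at 11.85 and 8.25 CPM, enclosed all others.

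The 3 GBPs had 3 different orders. Gbp10, from the chromosome 5 GBP cluster (105215699 to 105239533, minus strand), had 9 and 16 counts in EV, 70 in TC and 6, 7 and 6 in TC + ATA, so that TC was 4.81-fold the next library. Its transcripts share 84.1% of their 50-base words with other genes, mostly with Gbp6, and 1792 of its exon bases overlap Gm43302, so its counts are uncertain. Gbp6 itself had 3 and 7 counts in EV, 11 in TC and 2, 6 and 11 in TC + ATA.

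Gbp2, a GBP recruited to pathogen vacuoles (chromosome 3 from 142620602 to 142638008, plus strand), ran the other way. It had 360 and 385 counts in EV, 76 in TC, and 95, 122 and 140 in TC + ATA. The levels were 4.93 ± 0.167 CPM in EV (SD, n = 2), 1.095 CPM in TC (interval 0.775 to 1.503) and 1.80 ± 0.185 CPM in TC + ATA (SD, n = 3). Both EV libraries were above all TC-expressing libraries, and the TC library was at 0.655 of the lowest other library. Gbp3, its neighbour (142560026 to 142573209, plus strand), had 34 and 20 counts in EV, 14 in TC, and 26, 44 and 62 in TC + ATA. The TC library was again the lowest for Gbp3, and the TC + ATA libraries were the highest, the lowest of them, at 0.458 CPM, being barely above the higher EV library, at 0.4545 CPM.

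**Figure D2:**
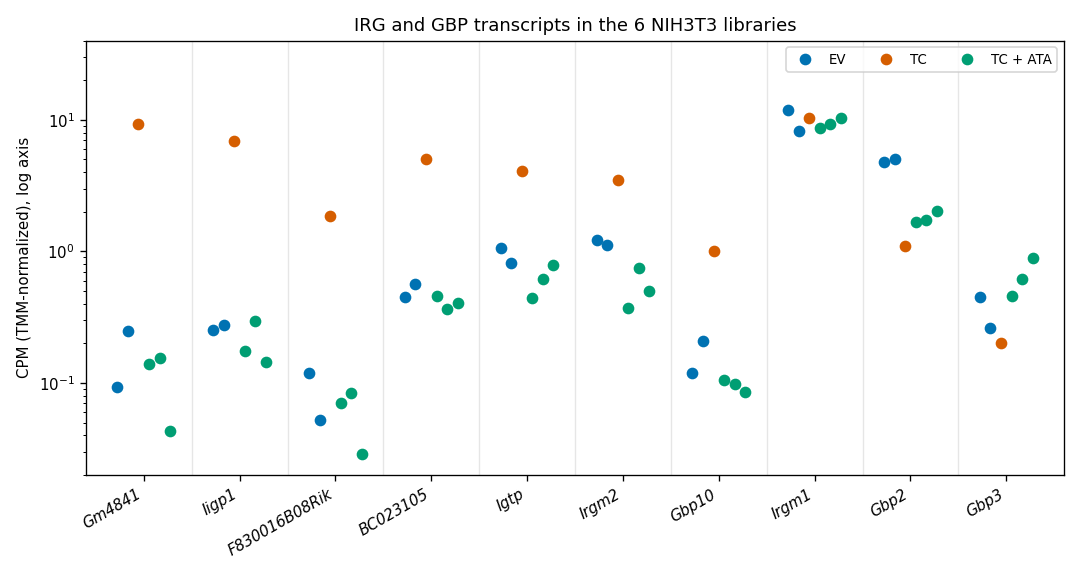
TMM-normalized CPM of the 10 members (log axis), 1 point per library, with EV in blue (n = 2), TC in orange (n = 1) and TC + ATA in green (n = 3). For the 7 genes from Gm4841 to Gbp10 the orange point is above all others by 2.835- to 37.6-fold, for Irgm1 it lies among them, and for Gbp2 and Gbp3 it is the lowest.

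Summed over the 7 members that were highest in TC, the level was 3.34 and 3.29 CPM in EV, 31.8 CPM in TC, and 1.76, 2.37 and 2.00 CPM in TC + ATA. Per kb of exon, the order among members differed between groups. In EV the highest levels per kb were those of Gbp2 (1.96 CPM per kb) and Irgm1 (1.73), which did not differ beyond the spread of Irgm1, followed by Igtp (0.466), BC023105 (0.419) and Irgm2 (0.320). In TC the order per kb began with BC023105 (4.11), Gm4841 (3.30), Igtp (2.03), Irgm1 (1.79) and Iigp1 (1.195), a single library without a measured spread. In TC + ATA it began with Irgm1 (1.62), Gbp2 (0.716), BC023105 (0.336) and Igtp (0.305). These CPM include reads that near-identical copies can share. Of the 50-base words in BC023105 14.7% occur in Gm4841, and of those in Igtp 11.8% occur in Irgm2, with which it also shares 162 exon bases. For Iigp1, F830016B08Rik and Irgm1 the share found in other genes was 0.379 to 1.75%.

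All 10 members passed the filter on low counts, but not in the same way. F830016B08Rik reached the filter's level in the TC library only, Gbp10 in 1 other library and Gm4841 in 2 others, whereas the remaining 7 reached it in all 5 others. Fitted by edgeR, the log2 difference of TC from EV was 5.75 for Gm4841, 4.71 for Iigp1, 4.41 for F830016B08Rik, 3.29 for BC023105, 2.60 for Gbp10, 2.12 for Igtp, 1.56 for Irgm2, 0.05 for Irgm1, -0.82 for Gbp3 and -2.17 for Gbp2. In that comparison 14.8% of the genes in the fit passed the threshold upward and 13.2% downward, in the next 0.426% higher and 0.156% lower, and nothing is read from these shares, because the TC library chose the members. The fitted log2 difference of TC + ATA from TC was -6.37 for Gm4841, -5.06 for Iigp1, -4.90 for F830016B08Rik, -3.61 for BC023105, -3.36 for Gbp10, -2.72 for Igtp, -2.67 for Irgm2, -0.14 for Irgm1, 0.72 for Gbp2 and 1.70 for Gbp3. Both comparisons share the TC library, so an unusual value there gives opposite signs in them. Across all genes tested, TC was at least 2-fold above both groups in 250 genes (1.35%), and when these were ranked by the smaller of the 2 folds, Gm4841 was at rank 1, Iigp1 at 3, F830016B08Rik at 4, BC023105 at 6, Gbp10 at 12, Igtp at 21 and Irgm2 at 68. Rank 2 was held by Gm12185. These ranks rest on the TC library that chose the members, so nothing is read from them.

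The comparison of TC + ATA with EV, which leaves the TC library out of both groups, asked whether the members differed between ATA-treated TC cells and cells without the fusion. Of the 10 members, 2 passed an adjusted p of 0.05 (edgeR quasi-likelihood test, Benjamini-Hochberg over all genes), both lower in TC + ATA, in a comparison in which 18.6% of all genes were called lower and 18% higher. The filter on low counts had used the TC library too. With only the EV and TC + ATA libraries in filter and fit, 8 members were tested and the same 2 were called. F830016B08Rik and Gbp10 then dropped out, so their values in this comparison are given as a description. Gbp2 fell by 1.45 on the log2 scale (SE 0.16, adjusted p = 0.0001488), with all 3 TC + ATA libraries below both EV libraries. Irgm2 fell by 1.11 (SE 0.31, adjusted p = 0.02066), from 1.18 ± 0.0722 CPM in EV (SD, n = 2) to 0.540 ± 0.192 CPM in TC + ATA (SD, n = 3). The Irgm2 call rested on few libraries, since the adjusted p by edgeR was 0.05133 without TC + ATA replicate 1, 0.07924 without TC + ATA replicate 3 and 0.06861 under the replicate block. Gbp2 stayed called in every alternative run, with adjusted p by edgeR or DESeq2 from 1.119e-08 to 0.001329.

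The other 8 members were not called, 7 of them with fitted values below 0 and Gbp3 above. The log2 difference of TC + ATA from EV was -0.35 for Iigp1 (SE 0.37, edgeR adjusted p = 0.4995), -0.61 for Gm4841 (SE 0.57, adjusted p = 0.4396), -0.32 for BC023105 (SE 0.28, adjusted p = 0.4048) and, as a description, -0.49 for F830016B08Rik (SE 0.67). It was -0.60 for Igtp (SE 0.30, edgeR adjusted p = 0.1562), -0.09 for Irgm1 (SE 0.15, adjusted p = 0.6916), 0.88 for Gbp3 (SE 0.44, adjusted p = 0.1602) and, as a description, -0.76 for Gbp10 (SE 0.54). Igtp, Irgm2 and Gbp2, and as a description Gbp10, had every TC + ATA library below both EV libraries, which held for 30.1% of all genes tested, and Gbp3 had every TC + ATA library above both, as did 28.7%. The median over the 10 members was -0.54, beside -0.01 over all genes, and it was -0.47 over the 8 members tested without the TC library. Without EV replicate 1 the fitted sign of F830016B08Rik and Irgm1 turned positive, and without EV replicate 2 that of Gm4841 did, so no direction is given for these 3.

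**Figure D3:**
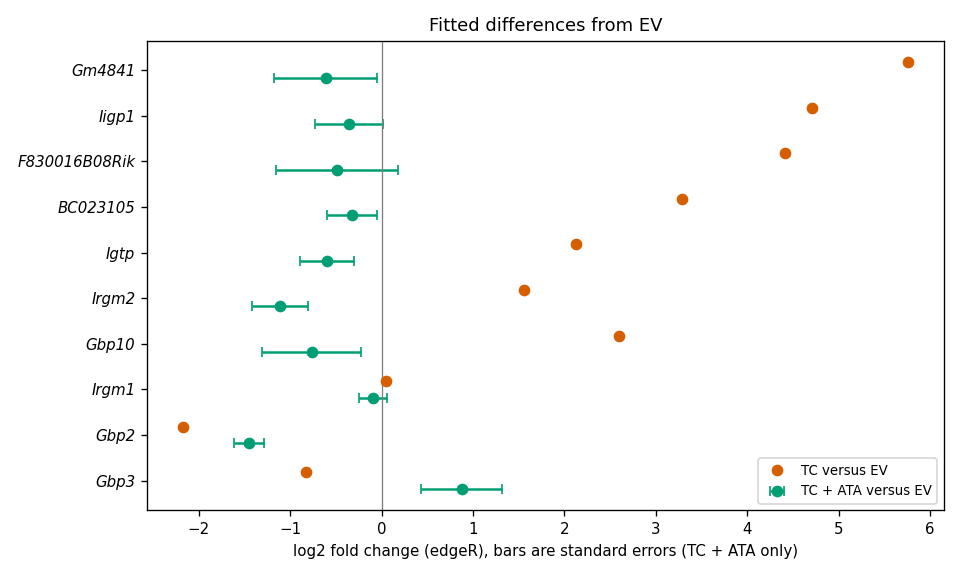
Fitted log2 fold change from EV for the 10 members in TC (orange, 1 library, no error drawn) and in TC + ATA (green, bars are standard errors, n = 3 against n = 2). The orange points spread from -2.17 for Gbp2 to 5.75 for Gm4841, whereas the green points lie between -1.45 and 0.88.

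The genes around the members were read from the same fit. Within 200 kb of a member lay 54 other genes, of which 28 were tested, and in TC against EV 4 rose and 7 fell by edgeR, in a comparison with 28% of all genes called, while DESeq2 called 7 in all. In TC + ATA against TC none of the 28 was called by edgeR or DESeq2, and 3 had an unadjusted p under 0.05 by edgeR. There 0.583% of all genes were called, so nothing is read from the lack of calls. Around the chromosome 18 members, Smim3 rose in TC by 1.06 on the log2 scale (edgeR adjusted p = 0.0001187) and was also called above EV with ATA (0.93, adjusted p = 4.185e-05). Dctn4, a dynactin subunit, fell by 0.29 in TC by edgeR (adjusted p = 0.03633) and was not called by DESeq2 (adjusted p = 0.05848). Rbm22 and Myoz3, the other 2 tested there, were not called in TC (log2 differences of -0.08 and 0.34).

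Among the 19 other IRG and GBP genes listed, 7 of 11 IRG genes and all 8 GBP genes were tested. Of those tested, 5 had their highest level in the TC library, beside 19% of the 18539 genes tested. In 4 of these (9930111J21Rik2, Gbp7, Tgtp2 and Gbp6) TC was 1.002- to 1.263-fold the next library, and in Gm12185 it was 14.55-fold. Gm12185, an IRG gene of the chromosome 11 cluster, had 4 and 0 counts in EV, 54 in TC and 0, 0 and 2 in TC + ATA. It reached the filter's level in the TC library only, so its difference is given as a description. Of the 6 other IRG genes tested, Irgq alone was called by edgeR in TC against EV. Irgq, a divergent member of the IRG family, had 2947 and 2921 counts in EV and 3250 in TC (log2 difference 0.27, adjusted p = 0.04191), and DESeq2 did not call it (adjusted p = 0.06137). Without a TC + ATA replicate its adjusted p by edgeR was 0.08202 to 0.09836, and with the replicate block 0.2145. Of the 8 other GBP genes, none was called in any of the 3 comparisons by edgeR or DESeq2, and the only unadjusted p under 0.05 by edgeR was that of Gbp9 in TC against EV, 1 gene of the 8. In TC, Gbp9 had 22 counts against 86 and 67 in EV, and Gbp7 had 69 against 65 and 48. Tgtp2, an effector IRG, had 13 and 16 counts in EV, 22 in TC, and 6, 22 and 3 in TC + ATA.

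Several low IRG and GBP genes were low in TC + ATA replicate 1, as were the leukocyte markers Ptprc, Cd4 and Cd3e. Gbp4 had 12 counts there against 43 and 49 in the other TC + ATA libraries, Gbp9 had 22 against 68 and 69, Gbp8 had 0 against 27 and 11, and Gm12250 had 3 against 36 and 30. Cd4, a T cell coreceptor, had 12 counts there against 124 and 134, and Cd3e, a T cell receptor subunit, 7 against 46 and 43. The summed level of the 7 lymphocyte markers was 1.88 to 2.23 CPM in EV, 1.01 CPM in TC, and 0.405 CPM in TC + ATA replicate 1 against 2.57 and 2.82 CPM in the others, with Ncr1, Ms4a1 and Cd8a at 0 to 2 counts in all libraries. The 9 macrophage markers, which include Ptprc, summed to 9.52 to 9.63 CPM in EV and 12.1 CPM in TC. Their sum was 13.6 CPM in TC + ATA replicate 1, above EV and TC, and 17.75 and 17.82 CPM in the other TC + ATA libraries. Of these markers, the defining Adgre1, Itgam and Tyrobp had 0 to 6 counts in every library. Within that list Lyz2, a lysozyme, was called higher in TC and in TC + ATA than in EV (log2 differences of 3.93 and 4.59, edgeR adjusted p = 1.09e-05 and 1.166e-06), and Csf1r, a growth factor receptor of macrophages, fell by 1.27 in TC + ATA against EV (adjusted p = 0.00709). The part of these transcripts in the IRG and GBP values was not tested.

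**Figure D4:**
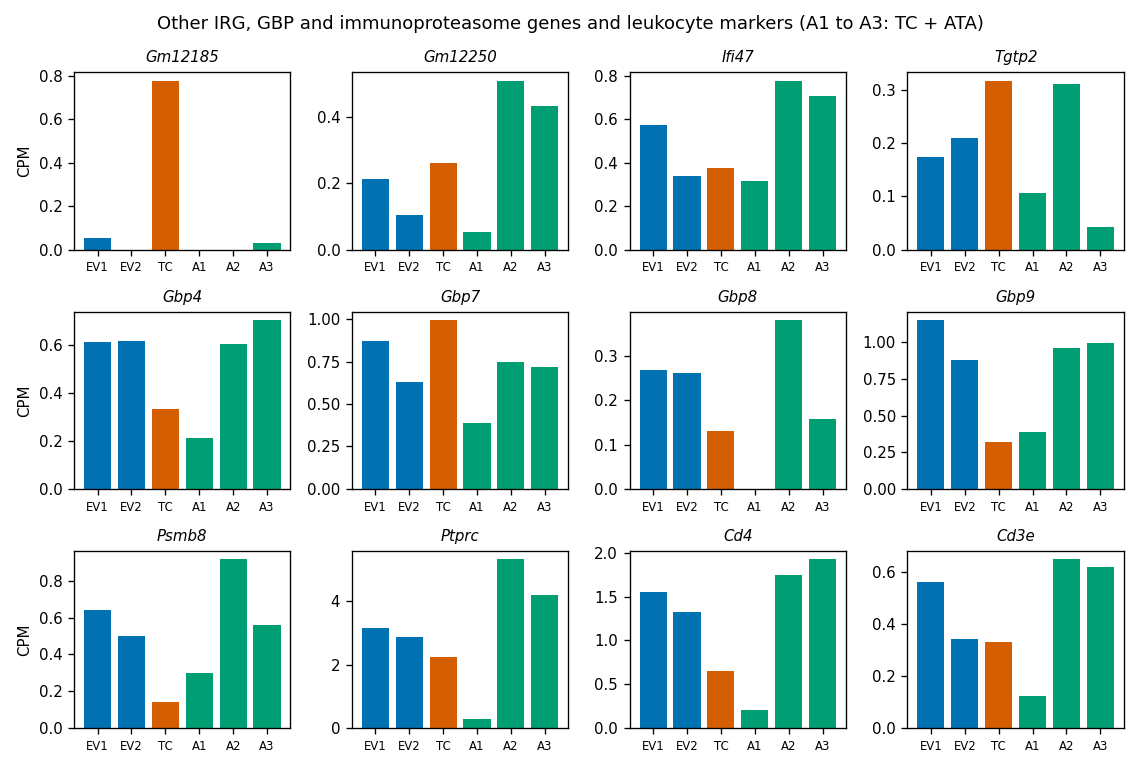
CPM per library of 8 other IRG and GBP genes, the immunoproteasome gene Psmb8 and the leukocyte markers Ptprc, Cd4 and Cd3e, each on its own linear axis from 0 (EV1 and EV2 blue, TC orange, A1 to A3 the TC + ATA replicates in green). Gm12185 is high in TC only, and Gbp4, Gbp8, Gm12250, Ptprc, Cd4 and Cd3e are lowest in A1.

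The pathway that normally induces these GTPases was read together with other interferon targets, sensing genes, genes that load the GTPases onto vacuoles, and other family genes. These lists held 157 genes outside the members, of which 154 were matched and 129 tested. In TC against EV, 19 rose and 26 fell (34.9% called, against 28% of all genes), in TC + ATA against EV 21 rose and 26 fell (36.4%, against 36.6%), and in TC + ATA against TC 2 rose and none fell (1.55%, against 0.583%), where DESeq2 called 5 and 19 had an unadjusted p under 0.05 by edgeR. Gm12185, which reached the filter's level in the TC library only, is counted among the 19 that rose and the 19 with an unadjusted p under 0.05. Nothing is read from its part in these counts. Ligands were scarce. Of 12 interferon genes 7 were at 0 in all libraries and 11 stayed under 10 counts, among them Ifng (2 and 4 counts in EV, 0 in TC, 2, 5 and 5 in TC + ATA) and Ifnb1 (4 counts in EV replicate 2 and 0 elsewhere). The 0 counts of Ifng in TC allow a level of up to 0.106 CPM (upper bound of the 95% Clopper-Pearson interval on halved counts).

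Among the receptors, the 2 chains for interferon-gamma moved in opposite directions. Ifngr1, the ligand-binding chain, rose in TC (log2 difference from EV 0.55, SE 0.10, edgeR adjusted p = 0.003832) and Ifngr2, the accessory chain, fell by 0.76 (SE 0.09, adjusted p = 0.0003329). Both were also called in TC + ATA against EV (0.63 and -0.84, edgeR adjusted p = 0.0002997 and 1.46e-05). The type I receptor chains Ifnar1 and Ifnar2 were not called in TC (log2 differences of -0.27 and -0.17, adjusted p = 0.05036 and 0.2784). Il10rb, a shared chain of the interferon-lambda receptor, rose by 0.94 (adjusted p = 0.0003977).

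Of 11 JAK and STAT genes, 2 rose and 6 fell in TC against EV. Stat3 fell by 1.46 in TC (SE 0.08, edgeR adjusted p = 4.052e-06), Stat5a by 0.66 (adjusted p = 0.009157) and Stat2 by 0.42 (adjusted p = 0.02884), while Jak1 rose by 0.48 (adjusted p = 0.002006) and Jak2 fell by 0.33 (adjusted p = 0.04321). Jak2 was not called by DESeq2 (adjusted p = 0.05389), and the Jak2 and Stat2 calls each ended when any 1 TC + ATA replicate was left out (edgeR adjusted p = 0.05946 to 0.09258). Of the 11 interferon regulatory factors tested, Irf5 and Irf3 fell in TC (-1.36 and -0.53, edgeR adjusted p = 0.0001042 and 0.01171). Irf1, an interferon-induced factor that binds ISREs, had 1823 and 2027 counts in EV, 1498 in TC, and 1302, 1616 and 1490 in TC + ATA, and was not called in TC (-0.24, adjusted p = 0.1245). Irf9, a DNA-binding partner of Stat2, was not called either (-0.09, adjusted p = 0.83), and Irf8, a factor of myeloid cells, had 4 to 22 counts. In TC + ATA against TC, the 2 pathway genes called were Stat3 (0.50, adjusted p = 0.03031) and Irf5 (1.30, adjusted p = 0.005378), both higher with ATA. The Stat3 call ended without any 1 TC + ATA replicate (edgeR adjusted p = 0.1658 to 0.1935), and the Irf5 call ended without TC + ATA replicate 3 (adjusted p = 0.05849).

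Of 60 interferon target and sensing genes tested, none was called by edgeR in TC + ATA against TC, where 0.583% of all genes were called. There 11 of the 60 had an unadjusted p under 0.05, as did 1781 of all 18539 genes, and DESeq2 called 3 (Ifitm3, Bst2 and Tapbp). Of 17 antigen presentation genes, 4 rose and 5 fell in TC against EV. Nlrc5, a transactivator of MHC class I genes, rose by 2.89 in TC (SE 0.16, edgeR adjusted p = 3.597e-06) and was also called in TC + ATA (2.83 against EV, adjusted p = 9.098e-07), as was B2m, the MHC class I light chain (0.88 in TC and 1.13 in TC + ATA against EV, adjusted p = 0.00078 and 2.696e-05). Tap1, a peptide transporter subunit, fell by 0.56 (adjusted p = 0.02777, and 0.05706 without TC + ATA replicate 2), Tap2 by 0.43 (adjusted p = 0.01685) and the proteasome activator Psme1 by 0.58 (adjusted p = 0.001783). The interferon-gamma chemokines Cxcl9 and Cxcl11 had 0 to 2 counts and Cxcl10 10 to 34. Of 25 type I response genes tested, 5 rose and 4 fell in TC. Bst2, which tethers budding viruses, rose by 2.99 (adjusted p = 1.617e-07), Ifit2, an RNA-binding antiviral protein, by 1.10 (adjusted p = 2.732e-05), and Ifitm3, which blocks viral entry, fell by 1.21 (adjusted p = 0.0004977). Isg15, a ubiquitin-like modifier, was not called in either comparison with EV, with 157 and 182 counts in EV, 154 in TC, and 131, 198 and 135 in TC + ATA. Of 13 negative regulators, 1 rose and 2 fell in TC, among them Pias3, an inhibitor of Stat3 (-0.72, adjusted p = 0.0004132), and Socs1, the feedback inhibitor of JAKs, had a value of -0.31 in TC (adjusted p = 0.1254) and fell by 0.50 in TC + ATA against EV (adjusted p = 0.00393).

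Of the genes that load IRGs and GBPs onto vacuoles through ATG8 conjugation, 2 of 10 fell in TC against EV by edgeR and none rose, while DESeq2 also called Atg16l1, which edgeR fitted as higher (0.44, adjusted p = 0.09381). The genes that fell were Atg12, a ubiquitin-like conjugation factor (-0.72, edgeR adjusted p = 0.0008004), and Gabarap, an ATG8 protein (-0.57, adjusted p = 0.01933, and 0.05113 without TC + ATA replicate 3). Of 9 sensing genes tested 1 rose, Tlr4, the receptor for bacterial lipopolysaccharide (1.86, edgeR adjusted p = 1.129e-06), and 3 fell, among them Tlr2, a receptor for bacterial lipopeptides (-2.15, adjusted p = 1.568e-05), and Ticam1, an adaptor of Tlr3 and Tlr4 (-0.9986, adjusted p = 0.0005115). Of 9 interferon-gamma effectors tested Ifi30, a lysosomal thiol reductase, rose by 0.58 (adjusted p = 0.01488) and Casp4, which recognises cytosolic lipopolysaccharide, fell by 1.03 (adjusted p = 0.004536). The 2 further interferon-inducible genes tested were Mx2, a large GTPase, and Rnf213. In TC neither was called by edgeR or DESeq2, with 0 at an unadjusted p under 0.05. Rnf213 fell by 0.34 in TC + ATA against EV (edgeR adjusted p = 0.00851).

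**Figure D5:**
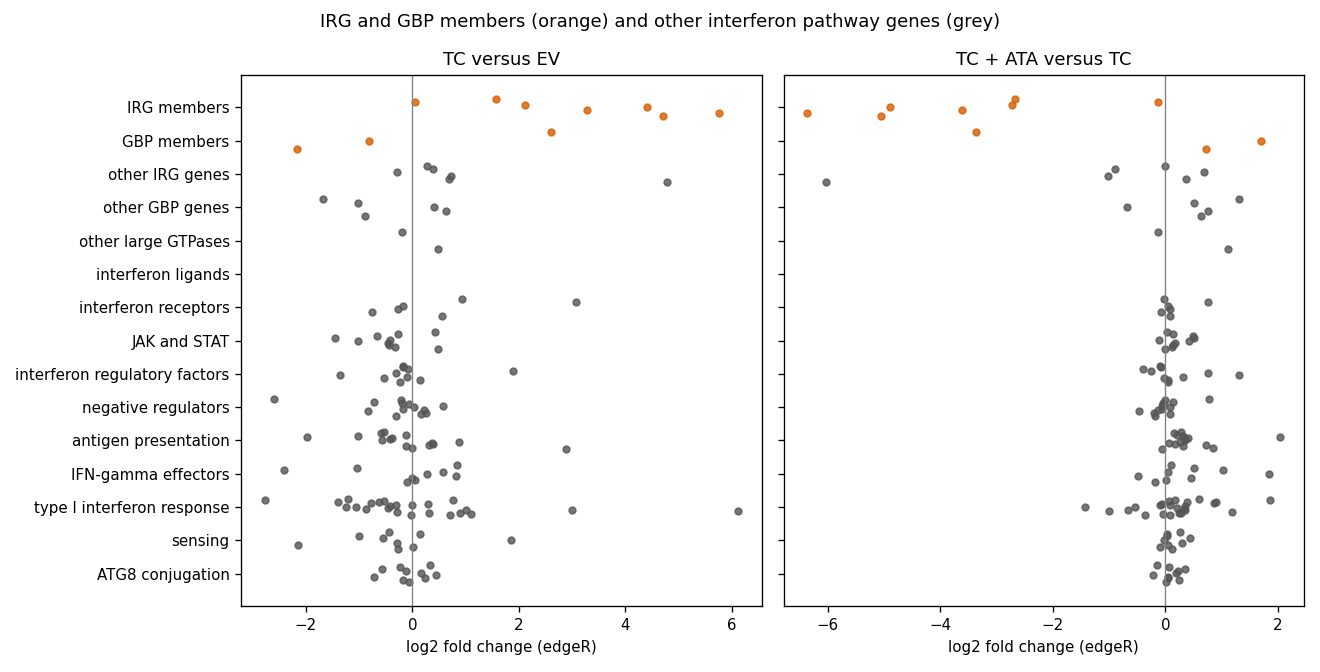
Fitted log2 fold change of TC against EV (left) and TC + ATA against TC (right) for 129 genes with a mean of at least 0.1 CPM, 1 point per gene in rows by list, members in orange and other pathway genes in grey, with a vertical line at 0. Both panels share the TC library. Of the grey points, Gm12185 lies farthest to the left in the right panel, at -6.04, and Nlrc5, Bst2 and Tlr4 lie to the right in the left panel and near 0 in the right panel.

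The genes whose profile over the 6 libraries was most like the mean profile of the members were mostly of low level. Over 7325 candidate genes, the highest Pearson r was 0.963 for Gm14416, followed by Gm6992 (0.958), Gm13328 (0.957), Gm26940 (0.948) and Nlrp5-ps (0.944). Then came Sema3d (0.942), Gm12185 (0.930), Prkcz (0.924), Ptprd (0.9225) and Gm2004 (0.917). Of these, Gm6992 had the highest counts, with 34 and 59 in EV, 136 in TC and 22, 33 and 30 in TC + ATA. The correlation is over 6 libraries that fall into 1 high TC value and 5 low values, so it describes the height of that single value. Among the members, r with that mean profile was 0.9305 to 0.989 for the 7 that were highest in TC, 0.278 for Irgm1, -0.397 for Gbp2 and -0.767 for Gbp3. The members themselves make up that profile, so their r values follow in part from how it was made.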

How the data were processed

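Raw counts per gene were deposited by the authors for 6 poly(A)-selected, paired-end RNA libraries of NIH3T3 cells. Per the labels and the study's methods, reads were aligned to mm10 (GRCm38.p6) with HISAT2 2.2.1 and counted with featureCounts. The annotation release, strand setting and handling of multi-mapping reads are not given in the sources used here, so reads of near-identical or overlapping genes may be split or lost. Ensembl identifiers were matched to GENCODE symbols (55141 of 55401). The members and gene lists were chosen with earlier results of these data known.

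Counts were filtered (filterByExpr, minimum count 10), scaled by TMM and fitted with edgeR 4.0.16 (R 4.3.3, quasi-likelihood test) to all 6 libraries with group as the only term, which leaves 3 residual degrees of freedom. Benjamini-Hochberg adjustment ran over 18539 genes, with calls at an adjusted p of 0.05. On simulated data for TC + ATA versus EV (17897 genes), 94 of 100 genes changed by 1 and 100 of 100 changed by 2 on the log2 scale were called, with 5 false calls. The changed genes were drawn only from those with a mean above 1 CPM. These rates therefore do not apply to genes below that level, where most members lay in EV and TC + ATA. Levels are CPM, per kb of merged exons where genes are compared. Intervals in TC are 95% Clopper-Pearson intervals on halved counts, since low counts were mostly even, and cover counting error only. Totals of 58471484 to 74413193 counts set the precision.

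All members were named. From each list, the called genes with a mean of at least 1 CPM, up to the 3 of largest change per comparison, were eligible, with fixed lists of signalling, IRG and GBP genes. The most similar genes were the 10 of highest r among those ranging over at least 1 log2 unit. Genes outside these rules (Tap1, Tap2, Isg15, Cxcl9 to Cxcl11 and the markers) were named after their values were seen. Same-numbered EV and TC + ATA libraries did not deviate together (r = -0.029 and -0.0861), so the numbers were not taken as pairs. Alternatives were DESeq2 1.42.0, RLE or library-size scaling, other filters, a prior count of 2, a replicate block, only the groups compared, and each replicate left out. Leaving out TC + ATA replicate 1 for the pathway lists was added after seeing the data. Sequences are from RefSeq promoter entries on GRCm38.p6. Some listed genes are not reported here.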

Additional observations from a re-analysis of the deposited data

How the results depend on the processing

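The replicate number is shared by EV and TC + ATA for 2 pairs, whose deviations did not correlate, and the numbers were not taken as pairs. The deviations of the 2 EV libraries mirror each other, so this check cannot decide whether the numbers mark pairs. With the replicate block, genes called were 3184 in TC versus EV (5191 without), 40 in TC + ATA versus TC (108 without) and 4645 in TC + ATA versus EV (6789 without), 1 member was called in TC + ATA versus EV in place of 2, and the members' median log2 difference was -3.22 in TC + ATA versus TC and -0.24 in TC + ATA versus EV (-3.04 and -0.54 without). The count for TC + ATA versus TC was 320 with DESeq2, 350 with no filter on low counts, 1428 with only the groups compared, and 10 to 1469 when 1 replicate was left out. Members called ranged from 1 to 3 when 1 replicate was left out, Irgm1 being called without EV replicate 2 (adjusted p = 0.04727). The filter at 1 CPM left 4 members, with medians of 0.82, -1.39 and -0.82 in TC versus EV, TC + ATA versus TC and TC + ATA versus EV, and a prior count of 2 gave -2.86 in TC + ATA versus TC. Leaving out 1 replicate gave medians of 2.28 to 2.49, -3.18 to -2.98 and -0.76 to -0.26 in the same order. Without TC + ATA replicate 1, 40, 1 and 36 pathway list genes were called in TC versus EV, TC + ATA versus TC and TC + ATA versus EV, in place of 45, 2 and 47. With library size as the only scaling, 2072 genes were called higher and 3159 lower in TC versus EV (2735 and 2456 with TMM), and 2711 higher and 4384 lower in TC + ATA versus EV (3340 and 3449 with TMM). Signs reversed for Irf9 in TC versus EV (0.11 with the block, and -0.39 to 0.27 when 1 replicate was left out) and, in TC + ATA versus EV, when 1 replicate was left out, for F830016B08Rik (-0.95 to 0.20), Irgm1 (-0.32 to 0.18), Gm12185 (-3.98 to 2.71) and Gm4841 (-1.16 to 0.26). Of 68 calls of single genes, 25 were lost in at least 1 alternative, 23 with the replicate block (5 in that alternative only), 18 with 1 replicate left out and 5 with DESeq2. With the block the calls lost in TC versus EV were Gm12185, Irgq, Jak1 (edgeR adjusted p = 0.05052), Jak2 (0.216), Stat2 (0.1568), Stat5a (0.05908), Irf3 (0.06472), Ifi30 (0.06851), Tap1 (0.0959), Tap2 (0.1154) and Dctn4 (0.121), in TC + ATA versus TC Stat3 (0.3539), and in TC + ATA versus EV Irgm2 and Rnf213 (0.08436) among others. Gm12185 had passed the filter on low counts only through the TC library. With only the groups compared Jak1 (0.07504), Jak2 (0.1931), Stat2 (0.1), Tap1 (0.05996), Tap2 (0.1482), Irgq (0.2897) and Dctn4 (0.2753) were not called in TC versus EV. The causes were not tested. With 1 TC library, the variation of vehicle-treated TC cells is unknown, and values near 3 counts cannot show a difference at this depth.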
